A study of Mus musculus with 30 samples.

Results

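Opposite-strand noncoding transcripts are RNAs that carry the name of a neighbouring gene followed by the ending os, because they are transcribed from the other DNA strand at that locus. Members were taken by spelling: a symbol of 6 or more characters ending in os, or in os and a digit, with an Ensembl identifier and 30 or more counts summed over the 30 libraries. The rule found 162 of the 50833 genes in the count table, of 304 symbols with this spelling. Of the other symbols, 110 had 1 to 29 counts, 29 had no count and 3 were outside the count table. By annotation, 151 members were noncoding (125 antisense, 13 processed transcripts, 9 lincRNAs, 3 bidirectional promoter lncRNAs and 1 transcribed unitary pseudogene). The other 11 were protein-coding genes and are kept apart. For *Selenos*, *Zbtb8os*, *Nanos1* and *Nanos3* no gene of the name was found. *Slc7a6os*, *Wdr83os*, *Brd3os*, *Ccpg1os*, *Cebpzos*, *Cdiptos* and *Fancd2os* lie on the strand opposite the named gene. The members were thus selected on their summed counts and their spelling. The rule itself used no comparison of groups, but it was chosen with earlier results of these data known. The choice was therefore not blind to differences between groups. By summed counts, *Scpep1os* and *Snhg7os* (30 counts each) and *Lrrc8dos* (31 counts) lay just inside. *Pitpnm2os2*, *Rapgef3os2*, *Arhgap27os3*, *Kirrel3os* and *Dhx58os* (28 counts each) lay just outside.

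Forelimb buds came from wild-type Swiss Albino mouse embryos whose mothers received an intraperitoneal injection at embryonic day E10.5. The injection held either C59 (10 µg per g body weight) or DMSO without C59. C59 is a small molecule that blocks porcupine and so the secretion of WNT ligands. By the study's methods the control fluid was DMSO in PBS, while the C59 fluid also held methylcellulose and Tween-20. This difference in fluid and C59 cannot be told apart. Limb buds were collected 1, 6, 12, 18 and 24 h later in 3 replicates per group, giving 30 libraries in 10 groups, and each replicate was the RNA of the forelimb buds of a single embryo of either sex. C59 was given to the mother and was not aimed at a cell type of the bud. In bulk RNA fewer cells of a type and less RNA per cell cannot be told apart.

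Opposite-strand transcripts arise in several arrangements. Some start at a shared promoter region and run away from the named gene, others run across its exons or introns, and some serve as precursors of small RNAs. For a few, such as the antisense transcript of *Hoxa11* in the distal limb, regulation of the partner gene has been described, while for most the RNA has no known role. WNT ligands bind Frizzled receptors and stabilise β-catenin, which activates targets such as *Axin2* together with TCF/LEF factors, and limb bud ectoderm and distal mesenchyme are known sites of this signalling.

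The RefSeq promoter windows (build GRCm38.p6, 300 bases, 250 before the transcript start and 50 from it) of 4 members are shown because these transcripts passed the test of C59 against DMSO at 3 times each or, in *Lrp8os2*, moved against the partner gene. The window of *Evx1os* lies at chr6:52314783-52315082 (- strand), that of *Lrp8os2* at chr4:107822973-107823272 (- strand), that of *Prdm16os* at chr4:154637330-154637629 (+ strand) and that of *Ptgs2os2* at chr1:150164899-150165198 (- strand). The capital at base 251 marks the transcript start, and in *Lrp8os2* the capital at base 112 marks the base opposite an internal RefSeq start of *Lrp8* on the other strand.
*Evx1os*: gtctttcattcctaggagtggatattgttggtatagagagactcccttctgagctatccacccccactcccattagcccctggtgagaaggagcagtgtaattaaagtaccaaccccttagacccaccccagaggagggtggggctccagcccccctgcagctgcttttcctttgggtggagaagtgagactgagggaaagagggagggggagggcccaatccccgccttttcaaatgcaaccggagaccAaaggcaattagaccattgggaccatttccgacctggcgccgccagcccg
*Lrp8os2*: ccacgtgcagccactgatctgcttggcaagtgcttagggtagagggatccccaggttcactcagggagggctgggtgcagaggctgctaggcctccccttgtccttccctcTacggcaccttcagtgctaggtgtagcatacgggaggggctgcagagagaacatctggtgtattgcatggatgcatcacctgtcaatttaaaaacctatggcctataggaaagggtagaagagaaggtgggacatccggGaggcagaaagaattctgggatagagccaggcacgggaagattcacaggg
*Prdm16os*: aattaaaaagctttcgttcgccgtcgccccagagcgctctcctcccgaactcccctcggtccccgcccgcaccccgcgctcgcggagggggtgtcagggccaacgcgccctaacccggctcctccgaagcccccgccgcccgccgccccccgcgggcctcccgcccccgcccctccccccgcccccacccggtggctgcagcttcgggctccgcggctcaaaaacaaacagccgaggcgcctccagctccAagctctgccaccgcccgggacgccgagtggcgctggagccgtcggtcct
*Ptgs2os2*: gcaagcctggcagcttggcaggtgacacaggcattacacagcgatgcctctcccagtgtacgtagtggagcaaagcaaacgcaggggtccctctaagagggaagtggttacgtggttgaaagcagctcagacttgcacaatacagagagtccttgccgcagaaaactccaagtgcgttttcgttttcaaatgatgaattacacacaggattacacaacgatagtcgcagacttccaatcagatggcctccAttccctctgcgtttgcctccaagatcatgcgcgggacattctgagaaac
The windows differed in base composition: *Prdm16os* held 39 CG pairs, *Ptgs2os2* 12, *Evx1os* 6 and *Lrp8os2* 5, next to a median of 8 over the 118 windows of the 94 noncoding members in the RefSeq table and of 7 over all 32851 windows. None of these 4 windows held the TCF/LEF letters CTTTGAA or CTTTGAT, the GLI letters GACCACCCA or the TATA letters TATAAA on either strand. Over member windows, CTTTGAA occurred in 5.93% (5.14% of all windows), CTTTGAT in 0.847% (3.73%), GACCACCCA in 0% (0.253%) and TATAAA in 7.63% (13.6%). Windows on the same gene can overlap, and these letters describe the windows only.

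*Dnm3os* is known as a precursor of miRNAs, and its exons hold the hairpins of *Mir199a-2* and *Mir214* on chromosome 1 (+ strand, GRCm38.p6). The mature miRNAs are printed with the seed, bases 2 to 8, in capitals; the 4 seeds differ from each other.
miR-199a-5p: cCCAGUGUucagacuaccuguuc
miR-199a-3p: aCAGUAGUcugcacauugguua
miR-214-5p: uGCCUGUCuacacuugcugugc
miR-214-3p: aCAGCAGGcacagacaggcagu
These RNAs were not measured here. *Dnm3os* itself was the third most abundant member by counts.

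The 151 noncoding members lay in 5 arrangements. Exons of 88 overlapped exons of the named gene on the opposite strand, 29 overlapped the gene without sharing exons, 22 were divergent with starts within 1 kb (median distance 164.5 bp), 3 were divergent with starts farther apart and 7 lay downstream or convergent. No gene of the name was found for 2. Exons of any opposite-strand gene covered part of the exons of 96 members, with a median of 15.6% of the exon length. Counting exons of other genes on either strand, 10 members shared 50% or more of their exon length.

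Shared exons bear on the values, because the libraries were treated as unstranded for the FPKM values (fragments per kilobase of transcript, scaled to library size) and the strand setting of the counts is not given in the sources used here. Of 478 genes with 99% or more of their exon length inside opposite-strand exons, 413 (86.4%) had no count in any library, against 32.8% of all genes in the table. Levels by counts are therefore given per kb of unshared exon. Where exons are shared, reads of a transcript and of its partner cannot be told apart in the FPKM values. As the strand setting of the counts is not given, intron reads of the named gene may also be counted to a member that overlaps it. This concerns the 88 members with overlapping exons and the 29 that overlap without sharing exons, and was not tested. Over the 30 libraries *Hoxa11os* had a mean of 63.6 FPKM. Its counts gave 5.86 CPM (counts scaled to library size) per kb of unshared exon. In all, 6 members were more than 3 times higher by FPKM than by counts per kb of unshared exon. They were *Hoxa11os*, *Lef1os1*, *Hand2os1*, *Pigbos1*, *Zeb2os* and *Six3os1*, and the exons of all 6 overlapped those of the named gene. Others were far lower by FPKM, such as *Far1os* (0 FPKM against 0.5365 CPM per kb), *Phf2os1* (0.04708 against 2.475) and *Nckap5los* (0.02373 against 0.7052). Their exons also overlap those of the named gene. The cause of a gap in either direction was not tested.

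**Figure D1:**
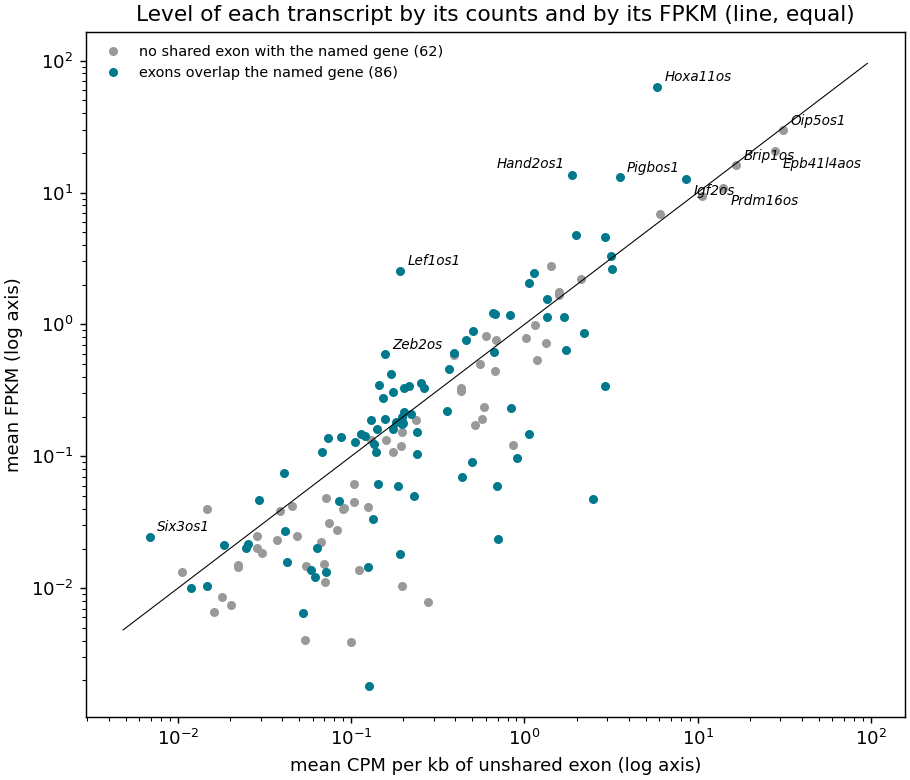
Mean FPKM of each noncoding member above 0 FPKM over the 30 libraries against its mean CPM per kb of unshared exon, both on log axes, with the line of equality. Teal points share exons with the named gene (86) and grey points do not (62). *Far1os*, *Ube4bos2* and *Scpep1os*, at 0 FPKM, are not drawn. *Hoxa11os* lies at 63.6 FPKM and 5.86 CPM per kb, far above the line, while *Oip5os1* lies on it.

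Most members were rare. The median over the 151 was 0.254 CPM, with a range from 0.0419 to 258 CPM, and 35 members reached 1 CPM, 8 reached 10 CPM and 27 reached 1 FPKM. *Oip5os1*, a conserved cytoplasmic lncRNA also known as Cyrano, held 37.9% of all member counts, and the 4 highest members held 69.8%. Per kb of unshared exon, the order by counts was *Oip5os1* (31.1 CPM per kb), *Epb41l4aos* (28.1), *Brip1os* (16.7), *Prdm16os* (14.1), *Dnm3os* (10.6) and *Igf2os* (8.56), with *Hoxa11os* at 5.86 and *Hand2os1* at 1.88. By FPKM the order was *Hoxa11os* (63.6), *Oip5os1* (29.7), *Epb41l4aos* (20.5), *Brip1os* (16.2), *Hand2os1* (13.6), *Pigbos1* (13.1), *Igf2os* (12.7) and *Prdm16os* (10.8). Of these, *Hoxa11os*, *Hand2os1*, *Pigbos1* and *Igf2os* share exons with the named gene, so that their FPKM may hold reads of both strands.

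Total counts per library ranged from 18188636 to 38974885. *Axin2*, the direct WNT target that checks the treatment, fell from 106 ± 5.92 to 27.2 ± 1.5 CPM (SD, n = 3) at 6 h (log2 fold change -1.97) and by 1.46 on the log2 scale at 12 h, and did not pass the test at 18 h (-0.15) or 24 h (-0.08). Summed limb mesenchyme markers (*Prrx1*, *Tbx5*, *Twist1*, *Hand2* and *Msx1*) were between 1658 and 1689 CPM in DMSO and between 1080 and 1167 CPM in C59 at 6 h, and at 1579 to 1683 CPM against 1096 to 1158 CPM at 12 h. The members of this list were uneven: at 6 h *Msx1* (-2.04), *Twist1* (-1.39) and *Prrx1* (-0.34) fell, while *Tbx5* (-0.08) and *Hand2* (-0.05) did not pass. At 12 h *Tbx5* rose by 0.21 and passed, while the other listed genes fell. Muscle progenitor markers were at 55.0 to 58.5 CPM against 78.6 to 89.8 CPM at 6 h, where *Pax3* fell by 0.80 and *Myod1* (1.46) and *Myog* (1.03) rose. At 12 h their sum was at 65.5 to 87.3 CPM against 97.0 to 126 CPM. This list was uneven at 12 h too: *Pax3* (-2.04) and *Myf5* (-0.999) fell, *Myog* (1.56) and *Myod1* (0.55) rose, and each passed. Also at 12 h, C59 was above DMSO in ectoderm (169 to 230 CPM against 133 to 148 CPM), endothelial (298 to 331 against 235 to 252), macrophage (19.5 to 20.6 against 11 to 13.5) and Schwann cell markers (12.0 to 21.6 against 6.34 to 10.8). At 18 h it was above DMSO in ectoderm (147 to 179 against 125 to 131) and macrophage markers (24.3 to 28.7 against 17.6 to 20.1). At 24 h it was so in ectoderm (156 to 157 against 134 to 146), macrophage (25.0 to 28.8 against 18.8 to 20.5) and Schwann cell markers (18.0 to 30.6 against 14.2 to 17.2), and below DMSO in endothelial (214 to 235 against 251 to 259) and muscle progenitor markers (145 to 164 against 167 to 193). Single genes of the macrophage and ectoderm lists went the other way without passing: *Ptprc* at 18 h (-0.232) and 24 h (-0.196) and *Krt8* at 24 h (-0.225). The 6 neural tube markers summed to 11.6 to 24.3 CPM, mostly from *Tubb3* (mean 15.2 CPM). Among them *Sox2* was at 0.989 CPM and *Neurog2* at 0 in all 30 libraries. Their sum in C59 was lower at 18 h (13.4 to 17.0 against 17.4 to 21.1) and 24 h (12.3 to 16 against 19.5 to 22.5) and higher at 1 h (13.8 to 14.6 against 11.6 to 13.6). Hindlimb (*Tbx4* and *Pitx1*) and Schwann cell markers at 6 h and muscle progenitor markers at 1 h did not overlap between the groups either, and the hindlimb sum was at most 22.9 CPM. Erythroid markers summed to 3112 to 9092 CPM, and their sums overlapped between the groups at each time. At 1 h *Hbb-y* (0.494) and *Hbb-bh1* (0.522) rose and passed, while *Hba-x* and *Hba-a1* rose without passing. *Hbb-bh1* fell at 6 h (-0.34) and 24 h (-0.485), where the other listed globins did not pass. At 1 h, summed FPKM of 4 Y-linked genes did not overlap between DMSO (0.0469 to 9.03) and C59 (21.2 to 38.2). The sums did not overlap at 6 h either (0 against 19.8 to 33.2). Embryo sex and C59 thus cannot be told apart at these times. At 24 h the sums were 0.0147 to 20.1 in DMSO and 19.3 to 25 in C59, so that sex was uneven there too. The part of sex and of cell composition in the results below was not tested.

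Over the 5 comparisons of C59 with DMSO, 66 noncoding members had enough counts to be tested at 1 or more times and 46 at all 5. A transcript passed where the adjusted p of edgeR's quasi-likelihood test, corrected over all genes by Benjamini-Hochberg, was below 0.05. By this call 20 of the 66 passed at 1 or more times and 9 of them at 2 or more, against 47.4% and 17.3% of the 16360 genes tested at 1 or more times. *Evx1os*, *Prdm16os* and *Ptgs2os2* passed at 3 times each.

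At 1 h, 2 of 56 members tested passed, both lower in C59, against 2.50% of all 15040 genes tested (1.05% higher and 1.45% lower). The median log2 fold change was 0.00 both over the members and over all genes. *Brip1os*, which starts 177 bp from the DNA helicase gene *Brip1*, was at 80.4, 76.7 and 80.5 CPM in DMSO and 65.6, 63.6 and 64.1 CPM in C59. The groups did not overlap, and *Brip1os* fell by 0.28 on the log2 scale (SE 0.05, adjusted p = 0.00398). *Prdm16os* fell by 0.25 (SE 0.06, adjusted p = 0.0456), a call that was lost without any 1 of 5 of the 6 libraries (adjusted p up to 0.141). Neither *Brip1* (-0.11) nor *Prdm16* (0.07) passed.

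At 6 h, when *Axin2* was at its lowest, 10 of 48 members tested passed, 5 higher and 5 lower, against 17.1% of all 14890 genes (7.02% higher and 10.1% lower). The median log2 fold change was -0.03 over the members and 0.01 over all genes. *Notumos*, *Ptgs2os2*, *Hoxd3os1*, *Emx2os* and *Hand2os1* fell, whereas *Zbtb11os1*, *Lrp8os2*, *Cep83os*, *Oip5os1* and *Brip1os* rose. Of all genes, 1.52% passed with a log2 fold change beyond 1, as did 5 of these 10.

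*Notumos* lies at chr11:120659157-120661815 (+ strand) across *Notum*, which encodes the secreted enzyme that inactivates WNT ligands by removing their lipid, and 26.6% of its exon is shared with opposite-strand exons. At 6 h it was at 1.18, 0.498 and 0.511 CPM in DMSO and 0.167, 0.0473 and 0.130 CPM in C59. The groups did not overlap, although the summed counts were small (48 against 8), and *Notumos* fell by 2.63 on the log2 scale (SE 0.58, adjusted p = 0.00807). *Notum* fell by 3.42 (SE 0.27, adjusted p = 4.11e-06). Without replicate 1 of DMSO the adjusted p of *Notumos* was 0.0578.

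*Ptgs2os2* lies at chr1:150159043-150164948 (- strand), 64917 bp by start from the cyclooxygenase gene *Ptgs2*, and its exons are not shared. It was at 2.69, 2.24 and 2.67 CPM in DMSO and at 0.794, 0.710 and 1.08 CPM in C59 at 6 h. All DMSO libraries were above all C59 libraries, and *Ptgs2os2* fell by 1.55 on the log2 scale (SE 0.26, adjusted p = 0.00154). Its call was kept when any 1 of the 6 libraries was left out, with adjusted p up to 0.0122. *Ptgs2* had too few counts to be tested at any time.

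Among transcripts next to patterning genes at 6 h, *Hoxd3os1* was at 2.53, 2.34 and 1.71 CPM in DMSO and 1.29, 0.947 and 1.04 CPM in C59, without overlap. It fell by 1.01 on the log2 scale (SE 0.27, adjusted p = 0.0202), while *Hoxd3*, a homeobox gene, was at -0.38 and did not pass. *Emx2os*, next to the homeobox gene *Emx2*, was at 9.93 ± 0.767 CPM in DMSO and 6.21 ± 1.64 CPM in C59 (SD, n = 3), with no overlap, and fell by 0.68 (SE 0.17, adjusted p = 0.0149). *Hand2os1*, next to the bHLH gene *Hand2* that acts in posterior limb mesenchyme, fell by 0.38 (SE 0.10, adjusted p = 0.0230). Neither *Emx2* (0.07) nor *Hand2* (-0.05) passed at 6 h.

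*Cep83os* and *Lrp8os2* rose at 6 h as their partners fell. *Cep83os* starts 78 bp from *Cep83*, which encodes a protein of the centriole appendages, and was at 5.75, 4.68 and 4.43 CPM in DMSO and 8.94, 7.15 and 7.29 CPM in C59. It rose by 0.64 on the log2 scale (SE 0.15, adjusted p = 0.0108), while *Cep83* fell by 0.22 (adjusted p = 0.0348). *Lrp8os2* was at 3.47, 2.64 and 1.88 CPM in DMSO and 3.30, 5.82 and 7.25 CPM in C59. Its groups overlapped, and it rose by 1.01 (SE 0.28, adjusted p = 0.0265). *Zbtb11os1* was at 0.694, 0.547 and 0.625 CPM against 1.46, 1.42 and 1.39 CPM and rose by 1.18 (SE 0.30, adjusted p = 0.0164).

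Of the 10 calls at 6 h, that of *Ptgs2os2* alone was kept without each library in turn. Besides *Notumos*, *Cep83os* was lost without C59 replicate 1 (adjusted p = 0.0616), *Brip1os* without C59 replicate 2 or 3 (0.0548 and 0.0515), *Oip5os1* without C59 replicate 1 or 3 (0.0920 and 0.0729), and *Emx2os* without C59 replicate 1 or 2 (0.0789 and 0.0648). *Hand2os1*, *Lrp8os2*, *Hoxd3os1* and *Zbtb11os1* were each lost without any 1 of 3 or 4 libraries, with adjusted p up to 0.0963, 0.141, 0.0864 and 0.0606.

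At 12 h, 11 of 54 members tested passed (20.4%), 5 higher and 6 lower, against 43.1% of all 15202 genes. The members tested were also rarer, with a median of 1.51 CPM against 22.6 CPM over all genes tested, and their median log2 fold change was 0.09 against 0.03. With a log2 fold change beyond 1 as well, 7 members passed, against 5.30% of all genes. *Notumos*, *Evx1os*, *Ptgs2os2*, *Ppifos*, *Foxd2os* and *Fzd10os* fell. *Kcnmb4os2*, *Lrp8os2*, *Stamos*, *Prdm16os* and *Oip5os1* rose. By arrangement, 4 of 11 divergent transcripts with starts within 1 kb passed, and 4 of 32 whose exons overlap those of the named gene.

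**Figure D2:**
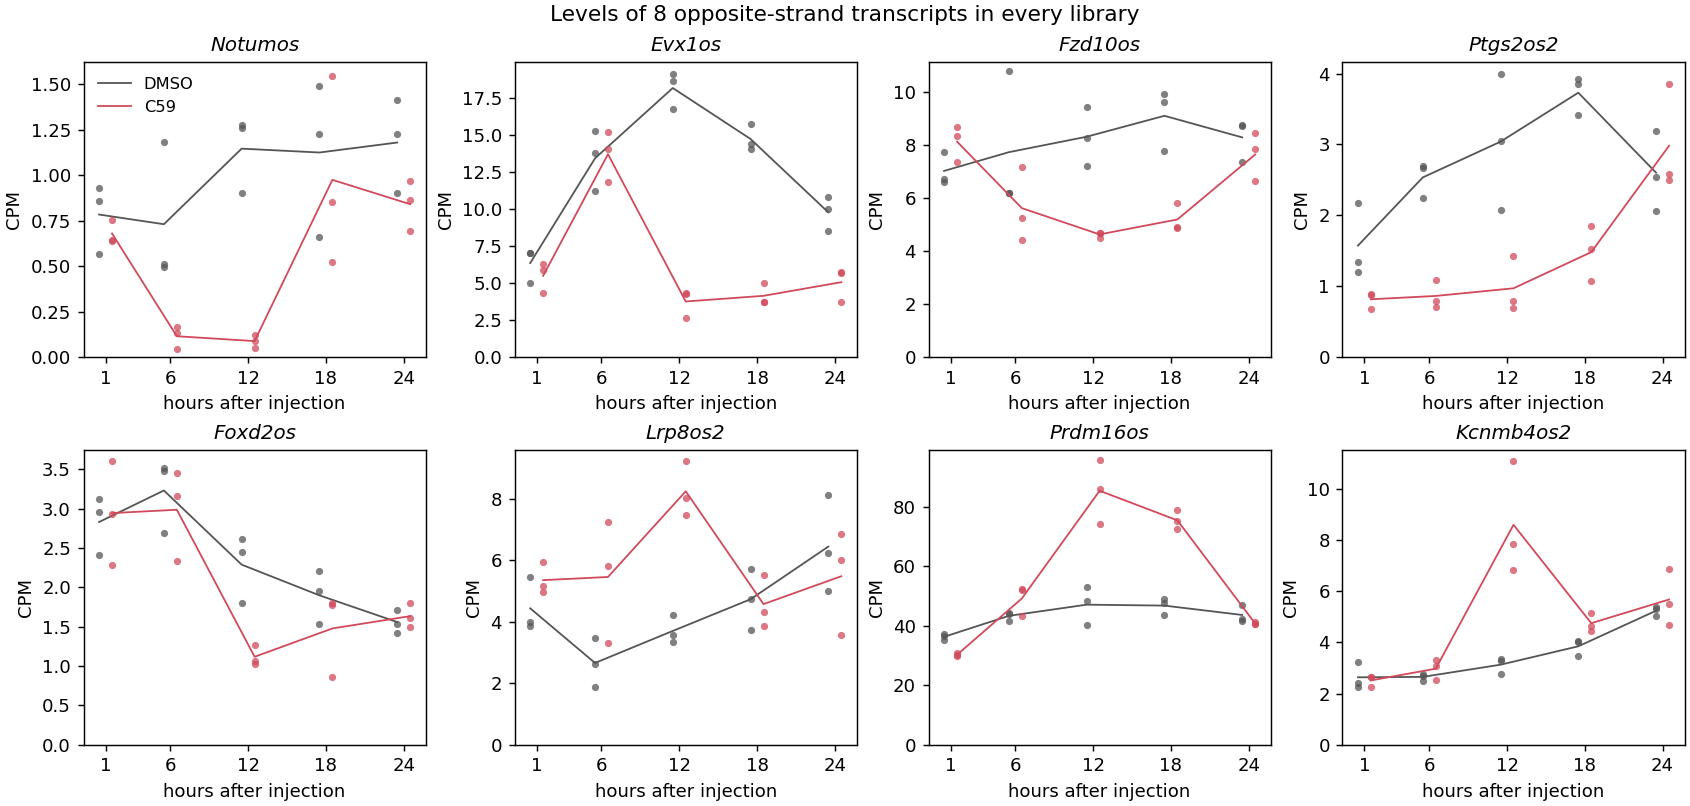
CPM of 8 opposite-strand transcripts in each of the 30 libraries against hours after injection, DMSO in grey and C59 in red, with points for libraries and lines through group means. At 12 h *Evx1os* was at 2.64 to 4.34 CPM in C59 and 16.7 to 19.1 CPM in DMSO, and *Kcnmb4os2* at 6.85 to 11.1 CPM in C59 and 2.76 to 3.35 CPM in DMSO.

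*Evx1os* lies at chr6:52308389-52314832 (- strand) at the end of the HoxA cluster, and shares 2.42% of its exon with the opposite strand; its promoter window is printed above. *Evx1* encodes a homeobox factor. At 6 h *Evx1os* did not differ by more than its spread, with 13.8, 15.2 and 11.2 CPM in DMSO and 15.2, 14.1 and 11.8 CPM in C59 (log2 fold change 0.02, SE 0.13, adjusted p = 0.935). At 12 h it was at 19.1, 16.7 and 18.6 CPM in DMSO and 2.64, 4.34 and 4.28 CPM in C59. The groups were far apart, and *Evx1os* fell by 2.28 on the log2 scale (SE 0.16, adjusted p = 3.38e-06) while *Evx1* fell by 2.75 (SE 0.21, adjusted p = 4.41e-06). At 18 h it was at 15.7, 14.0 and 14.4 CPM against 4.99, 3.71 and 3.70 CPM and fell by 1.82 (SE 0.16, adjusted p = 7.91e-04). At 24 h it was at 10.8, 9.999 and 8.52 CPM against 5.70, 5.73 and 3.73 CPM and fell by 0.94 (SE 0.17, adjusted p = 0.00925), with *Axin2* no longer lower. Without DMSO replicate 1 of 24 h the last call was lost (adjusted p = 0.0514), whereas the 12 h and 18 h calls held without each library in turn.

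*Notumos* was at 0.903, 1.28 and 1.26 CPM in DMSO and 0.0527, 0.123 and 0.0892 CPM in C59 at 12 h, from 66 and 6 summed counts. It fell by 3.58 on the log2 scale (SE 0.46, adjusted p = 1.40e-04), beside a fall of 3.75 (SE 0.28, adjusted p = 4.26e-06) in *Notum*. Neither differed past the test at 18 h (*Notumos* -0.15, SE 0.45; *Notum* 0.12, SE 0.18).

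*Fzd10os* starts 151 bp from *Fzd10* in the GENCODE annotation (413 bp from the RefSeq start), a WNT receptor of the Frizzled family, and lies at chr5:128579106-128600693 (- strand) with no shared exon. At 12 h it was at 8.28, 9.43 and 7.21 CPM in DMSO and 4.69, 4.50 and 4.68 CPM in C59. It fell by 0.86 on the log2 scale (SE 0.15, adjusted p = 8.75e-04), less than *Fzd10*, which fell by 2.08 (SE 0.09, adjusted p = 2.77e-07). At 6 h *Fzd10* had fallen by 1.99 while *Fzd10os* was at -0.45 (SE 0.23, adjusted p = 0.210), with 6.201, 6.17 and 10.8 CPM against 4.43, 5.25 and 7.16 CPM. At 18 h the falls were 0.81 (SE 0.16, adjusted p = 0.0216) and 0.74 (SE 0.11, adjusted p = 0.00728) in turn. The difference between a transcript and its partner was not tested in any of these pairs.

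*Foxd2os*, at chr4:114909257-114921967 (+ strand) and 384 bp by start from the forkhead gene *Foxd2* in GENCODE (359 bp from the RefSeq start), was at 2.62, 2.45 and 1.80 CPM in DMSO and 1.26, 1.06 and 1.03 CPM in C59 at 12 h. It fell by 1.06 on the log2 scale (SE 0.26, adjusted p = 0.00717), and *Foxd2* fell by 0.97 (SE 0.21, adjusted p = 0.00370). *Ptgs2os2* stayed low at 12 h, at 3.04, 3.995 and 2.08 CPM against 0.791, 0.696 and 1.43 CPM (log2 fold change -1.66, SE 0.34, adjusted p = 0.00283). *Ppifos* shares 79.5% of its exon with *Ppif*, the gene of cyclophilin D, and fell by 1.27 (SE 0.36, adjusted p = 0.0152) beside a fall of 0.61 in *Ppif*. Its call was lost without DMSO replicate 1 (adjusted p = 0.0520), C59 replicate 1 (0.0525) or C59 replicate 3 (0.0544).

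*Lrp8os2* lies at chr4:107806033-107823022 (- strand) inside *Lrp8*, the gene of a reelin receptor, shares no exon with it and starts 139 bp from an internal RefSeq start of *Lrp8*. At 12 h it was at 3.33, 3.57 and 4.21 CPM in DMSO and 7.49, 8.02 and 9.23 CPM in C59. All C59 libraries were above all DMSO libraries, and *Lrp8os2* rose by 1.14 on the log2 scale (SE 0.16, adjusted p = 2.30e-04). *Lrp8* went the other way, from 27.2, 26.3 and 28.7 CPM to 8.64, 12.3 and 11.9 CPM, a fall of 1.34 (SE 0.12, adjusted p = 1.24e-05). At 18 h *Lrp8* was still lower (-0.56, adjusted p = 0.0310) and *Lrp8os2* was at -0.06 (SE 0.21).

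*Prdm16os* lies at chr4:154637576-154644724 (+ strand), 703 bp from the start of *Prdm16*, which encodes a zinc finger transcription factor, and shares no exon. At 12 h it was at 52.9, 40.2 and 48.1 CPM in DMSO and 95.8, 85.9 and 74.2 CPM in C59. It rose by 0.84 on the log2 scale (SE 0.11, adjusted p = 1.45e-04) beside a rise of 0.52 (SE 0.08, adjusted p = 3.44e-04) in *Prdm16*. At 18 h it was at 47.7, 49.0 and 43.5 CPM against 72.4, 78.8 and 75.1 CPM and rose by 0.69 (SE 0.09, adjusted p = 0.00474), again without overlap and again with *Prdm16* (0.52). At 24 h *Prdm16os* was at -0.10 (SE 0.07), and *Prdm16* fell by 0.21 (adjusted p = 0.0460).

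*Kcnmb4os2*, at chr10:116473163-116475319 (+ strand), carries the name of a potassium channel subunit gene that had too few counts to be tested at 12 h, and 34.2% of its exon is shared. It was at 2.76, 3.35 and 3.28 CPM in DMSO and 6.85, 7.86 and 11.1 CPM in C59 at 12 h. It rose by 1.44 on the log2 scale (SE 0.21, adjusted p = 2.71e-04) and did not pass at the other times. *Oip5os1*, the most abundant member, was at 251.2, 257 and 243 CPM against 289, 318 and 297 CPM at 12 h, a rise of 0.25 (SE 0.05, adjusted p = 0.00151). *Stamos*, 164 bp from *Stam*, rose by 0.94 (SE 0.31, adjusted p = 0.0327), a call that was lost without DMSO replicate 1 (0.122), DMSO replicate 2 (0.0793), C59 replicate 1 (0.0927) or C59 replicate 3 (0.0749).

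At 18 h, 7 of 55 members tested passed (12.7%), 2 higher and 5 lower, against 5.69% of all 15398 genes (2.75% higher and 2.94% lower). With a log2 fold change beyond 1 as well, 4 passed, against 1.27% of all genes. The median log2 fold change was -0.16 over the members and 0.01 over all genes. Besides *Evx1os*, *Prdm16os* and *Fzd10os*, *Ptgs2os2* was at 3.85, 3.92 and 3.42 CPM in DMSO and 1.84, 1.52 and 1.08 CPM in C59 and fell by 1.33 on the log2 scale (SE 0.24, adjusted p = 0.0147). *Hand2os1* was at 31.9, 27.3 and 30.6 CPM against 21.0, 20.7 and 15.99 CPM and fell by 0.63 (SE 0.13, adjusted p = 0.0288). The groups of both did not overlap, while *Hand2* was at -0.03 (SE 0.12). *Zfp335os* fell by 1.29 (SE 0.32, adjusted p = 0.0495) and *Map2k3os* rose by 1.10 (SE 0.25, adjusted p = 0.0389).

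Single libraries stood apart from their group over all genes at several times. Chi-square per degree of freedom against the other replicates was 21.0 and 23.1 for DMSO replicate 1 at 1 h (5.40 between those), 42.4 and 35.9 for DMSO replicate 1 at 6 h (5.79) and 42.8 and 32.1 for C59 replicate 2 at 24 h (11.9). Without them 2 members passed at 1 h, 8 at 6 h and 2 at 24 h. Over development 25 passed without DMSO replicate 1 of 1 h, and for the changes of effect 4 passed without DMSO replicate 1 of 6 h and 11 without C59 replicate 2 of 24 h. At 18 h a library of each group stood apart: chi-square per degree of freedom was 39.5 and 33.4 between C59 replicate 3 and the others, next to 4.13 between those, and 36.4 and 29.2 between DMSO replicate 1 and the others, next to 3.98. Without C59 replicate 3 the 7 calls held and 8 members passed. Without DMSO replicate 1, 2 members passed, as without any other DMSO library or C59 replicate 2, and 4 without C59 replicate 1. *Evx1os* (adjusted p up to 0.00978) and *Prdm16os* (up to 0.0481) kept their calls without each library in turn. *Ptgs2os2* was lost without any 1 DMSO library or C59 replicate 2 (up to 0.0683), and so was *Hand2os1* (up to 0.132). *Fzd10os* (up to 0.0900), *Zfp335os* (up to 0.171) and *Map2k3os* (up to 0.161) were lost without any 1 library other than C59 replicate 3.

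At 24 h, 2 of 59 members tested passed, 1 higher and 1 lower, against 5.21% of all 15764 genes (2.42% higher and 2.79% lower). They were *Evx1os*, described above, and *Ttc39aos1*, which alone passed with a log2 fold change beyond 1 (0.952% of all genes). *Ttc39aos1* was at 0.147, 0.263 and 0.115 CPM in DMSO and 0.566, 1.01 and 0.507 CPM in C59 and rose by 1.96 on the log2 scale (SE 0.50, adjusted p = 0.0439). That call was lost without any 1 of the 6 libraries other than C59 replicate 3 (adjusted p up to 0.182).

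**Figure D3:**
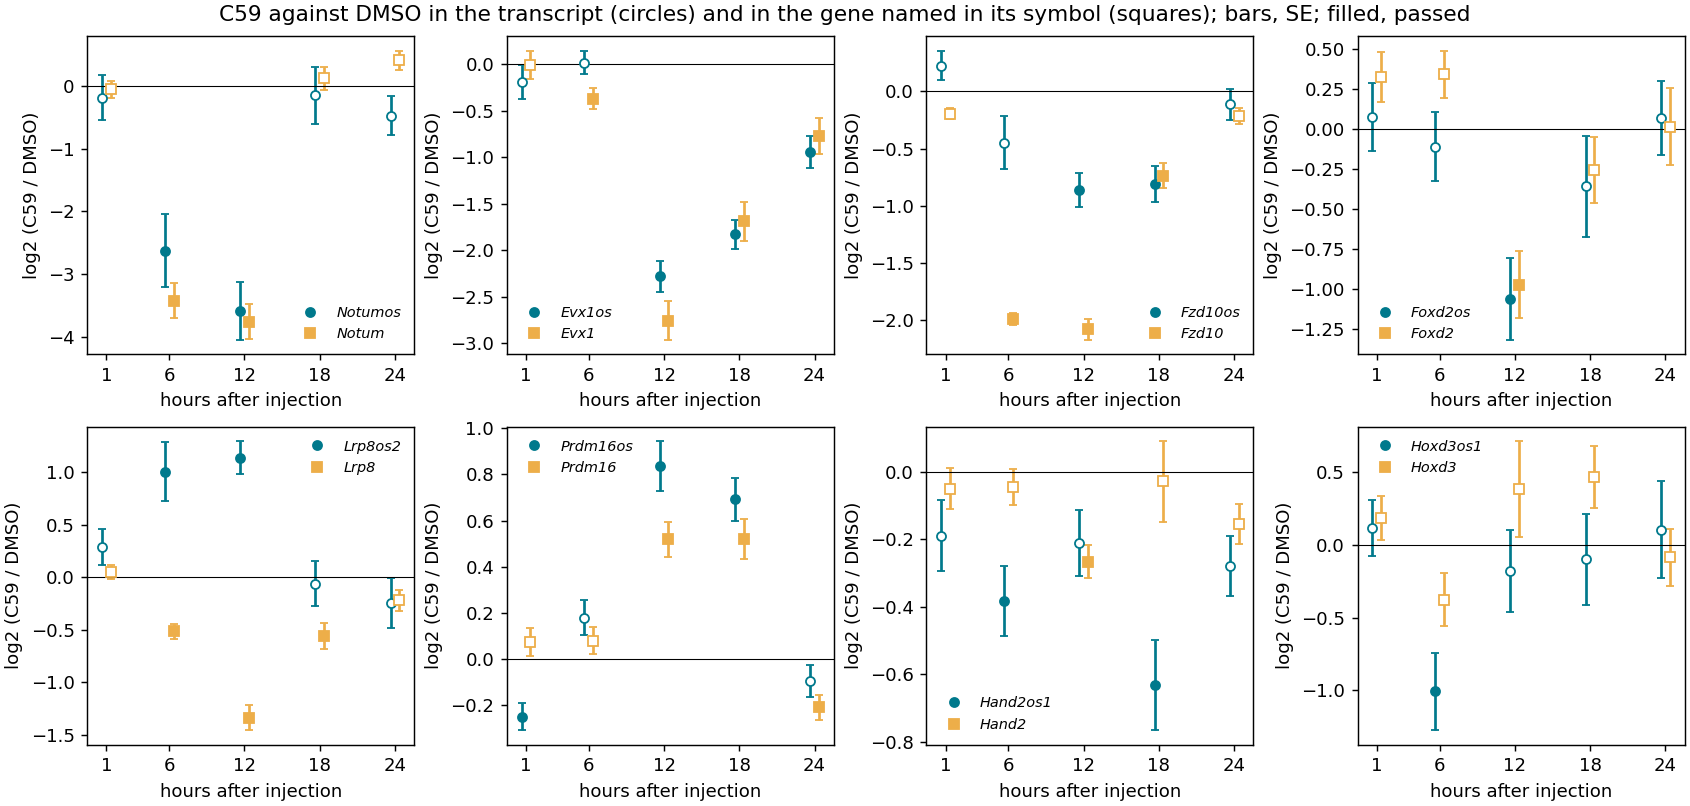
Log2 fold change of C59 against DMSO (± SE) at 5 times for 8 opposite-strand transcripts (teal circles) and the genes named in their symbols (yellow squares); filled symbols passed the test. *Evx1os* and *Evx1* lie together from 12 h to 24 h, *Lrp8os2* and *Lrp8* on opposite sides of 0 at 6 h and 12 h, and *Fzd10os* reaches -0.86 at 12 h where *Fzd10* reaches -2.08.

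Each member was set beside the gene in its symbol. Where a member overlaps that gene, the counts may not hold both sides apart, as their strand setting is not given. At 12 h both sides were tested in 51 pairs: both passed in the same direction in 6 (*Notumos*, *Evx1os*, *Fzd10os*, *Foxd2os*, *Ppifos* and *Prdm16os*), in opposite directions in 1 (*Lrp8os2*), the transcript alone in 2, the named gene alone in 19 and neither in 23. At 6 h these numbers were 1 (*Notumos*), 2, 6, 7 and 29 of 45 pairs. At 18 h they were 3, 0, 3, 4 and 42 of 52, at 1 h 0, 0, 2, 2 and 48 of 52, and at 24 h 1, 0, 1, 5 and 49 of 56. A named gene that passed without its transcript is not shown to differ from it. *Hoxa11os* is an example: *Hoxa11*, a homeobox gene of limb patterning, fell by 0.65 at 12 h (SE 0.08, adjusted p = 9.83e-05), while *Hoxa11os* was at -0.14 (SE 0.16, adjusted p = 0.518).

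**Figure D4:**
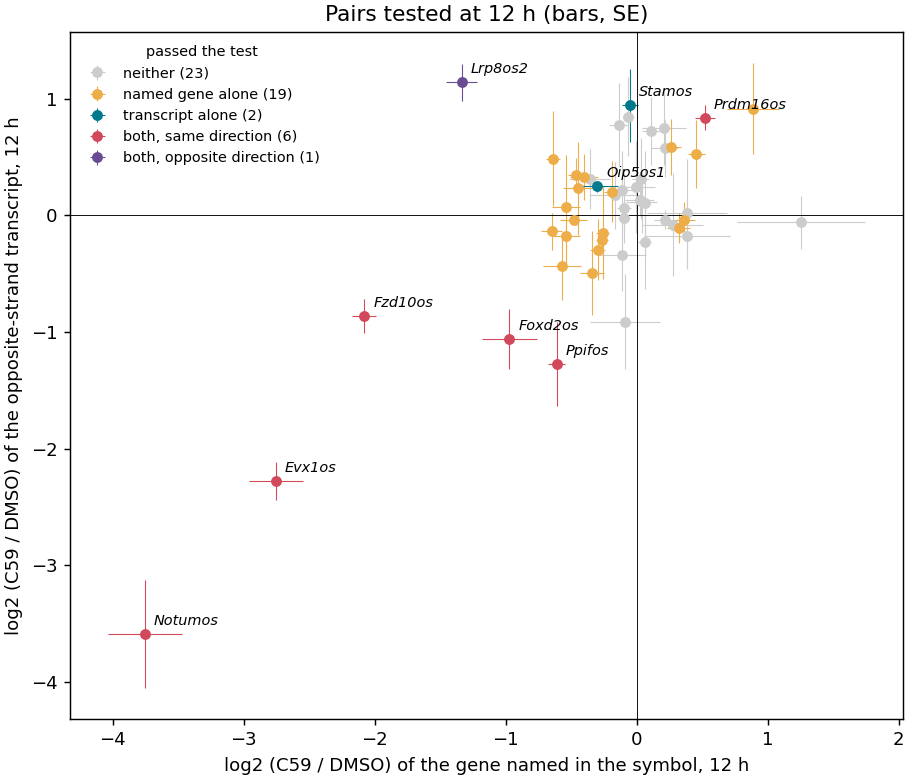
Log2 fold change (± SE) of C59 against DMSO at 12 h for 51 opposite-strand transcripts against that of the genes named in their symbols, coloured by which of the pair passed the test. *Notumos* lies at -3.58 with *Notum* at -3.75, *Evx1os* at -2.28 with *Evx1* at -2.75, and *Lrp8os2* alone in the upper left at 1.14 with *Lrp8* at -1.34.

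Members were grouped by fixed lists of symbol beginnings, such as Hox, Tbx, Fzd and Igf, and not by all known functions. By these lists 21 noncoding members were next to patterning transcription factors and 5 next to signalling genes, and 125 were counted as others. The others hold *Ict1os* and *Snhg7os*, which have no named gene. They also hold *Notumos*, which fell at 6 h and 12 h, and *Prdm16os*, which fell at 1 h and rose at 12 h and 18 h. Of the patterning group, 11 were tested at 6 h, with 0 higher and 3 lower (*Hoxd3os1*, *Emx2os* and *Hand2os1*), 12 at 12 h, with 0 higher and 2 lower (*Evx1os* and *Foxd2os*), 12 at 18 h, with 0 higher and 2 lower (*Evx1os* and *Hand2os1*), and 13 at 24 h, with 0 higher and 1 lower (*Evx1os*). At 1 h 13 were tested and 0 passed in edgeR or DESeq2, with 1 at an unadjusted p under 0.05 in edgeR. The other transcripts of this group that were tested at 12 h ranged from *Dlx6os1* at -0.91 (adjusted p = 0.0963) to *Hoxb3os* at 0.23 and included *Tbx3os1*, *Tbx3os2*, *Hoxb5os* and *Irx3os*. In the signalling group *Fzd10os* alone fell, at 12 h and 18 h, of 2 tested. Of the rest, 5 rose and 3 fell of 40 tested at 12 h, and 5 rose and 2 fell of 35 at 6 h. Among all genes, 20.0% were higher and 23.1% lower at 12 h.

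Transcripts near signalling or patterning genes that stayed below the tested range included *Lhx1os*, *Six3os1*, *Foxl2os*, *Sox5os1*, *Rspo4os*, *Fgf2os* and *Igf1os*, with means of 0.138, 0.0731, 0.0836, 0.0486, 0.0478, 0.0964 and 0.119 CPM over the 30 libraries. These were not tested at any time. *Igf1os*, next to the gene of insulin-like growth factor 1, had 16 summed counts in DMSO and 1 in C59 at 6 h. Its CPM there were 0.259 ± 0.0217 against 0.0145 ± 0.0251 (SD, n = 3). These counts were too low to be tested, and embryo sex and C59 cannot be told apart at 6 h. *Lef1os1*, across the gene of the WNT effector LEF1, had 23 summed counts in DMSO and 3 in C59 at 12 h, and was not tested there.

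In DMSO libraries alone, 22 of 57 members tested (38.6%) differed between 24 h and 1 h, 13 higher and 9 lower, against 53.5% of all 15632 genes (26.6% higher and 26.8% lower). With a log2 fold change beyond 1 as well, 8 passed, against 11.7% of all genes. These libraries also enter the C59 comparisons of 1 h and 24 h. *Tbx3os1* lies at chr5:119570130-119671365 (- strand) next to *Tbx3*, a T-box gene of limb patterning, and was at 4.12, 3.94 and 4.23 CPM at 1 h and 12.6, 12.1 and 13.1 CPM at 24 h. The groups were far apart, a rise of 1.62 on the log2 scale (SE 0.11, adjusted p = 5.78e-08), while *Tbx3* was at 0.12 (SE 0.06, adjusted p = 0.0842). *Tbx3os2* rose by 1.43 (SE 0.36, adjusted p = 0.00407). *Emx2os* went from 5.34, 4.13 and 4.85 CPM to 13.1, 14.8 and 11.5 CPM, a rise of 1.46 (SE 0.14, adjusted p = 9.29e-07), against 0.27 for *Emx2* (adjusted p = 0.00749). Its path was not steady: its mean was 9.93 ± 0.77 CPM at 6 h, 8.98 ± 1.72 CPM at 12 h and 5.39 ± 1.57 CPM at 18 h (SD, n = 3).

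Opposite directions were seen in 4 pairs over development, the same direction in 5, the transcript alone in 9, the named gene alone in 23 and neither in 11 of 52. *Hoxa11os* was at 4.47, 9.42 and 6.46 CPM at 1 h and 11.2, 10.9 and 10.2 CPM at 24 h and rose by 0.67 on the log2 scale (SE 0.20, adjusted p = 0.0109), while *Hoxa11* fell by 0.65 (SE 0.07, adjusted p = 3.29e-06). *Igf2os* fell by 0.53 (SE 0.08, adjusted p = 1.34e-04) as *Igf2*, the gene of an imprinted growth factor, rose by 0.15. *Oip5os1* rose by 0.28 and *Brip1os* by 0.20 as *Oip5* fell by 0.55 and *Brip1* by 0.37. Among pairs with the same direction, *Hoxd3os1* fell by 1.22 (SE 0.26, adjusted p = 0.00140) with *Hoxd3* (-0.62), *Foxd2os* by 0.86 with *Foxd2* (-0.53) and *Hoxb3os* by 0.90 with *Hoxb3* (-0.36), while *Dnm3os* rose by 0.39 (0.62 without DMSO replicate 2 of 1 h) with *Dnm3* (1.25).

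Of the patterning group, 5 of 13 tested rose over development (*Tbx3os1*, *Tbx3os2*, *Emx2os*, *Hoxa11os* and *Evx1os*) and 3 fell (*Hoxd3os1*, *Hoxb3os* and *Foxd2os*). *Evx1os* rose by 0.63 (SE 0.15, adjusted p = 0.00339), passing through its highest DMSO level at 12 h. The largest falls were in *Pcsk2os1* (-2.37, 48 and 9 summed counts), *Abhd11os* (-1.97) and *H3f3aos* (-1.33). The calls of *Dnm3os*, *Epb41l4aos*, *Lrp8os2*, *Ptgs2os2*, *Hoxb3os*, *H3f3aos* and *Il1bos* were lost without any 1 of 3 or 4 of the 6 libraries, with adjusted p up to 0.159, and *Lrp8os2* moved from 0.55 to 0.35 without DMSO replicate 2 of 24 h. For *Hoxb3os*, which shares 76.2% of its exon, the direction turned with FPKM (0.04 on log2(FPKM + 1)).

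**Figure D5:**
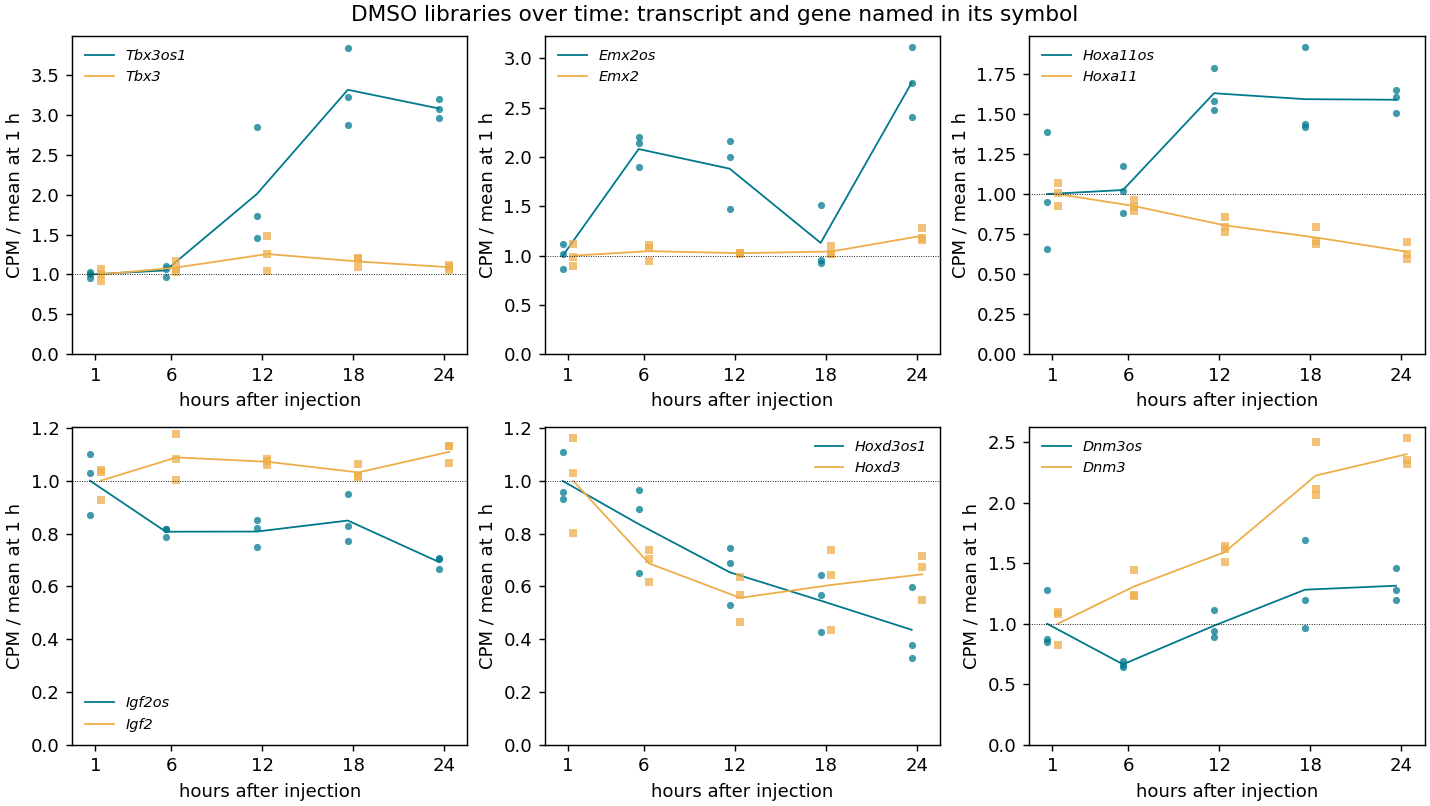
CPM of 6 opposite-strand transcripts (teal) and the genes named in their symbols (yellow) in the DMSO libraries, divided by the mean at 1 h, against hours after injection; points are libraries and lines join means. *Tbx3os1* leaves 1 between 6 h and 12 h and ends at 12.1 to 13.1 CPM while *Tbx3* stays near 1, and *Hoxa11os* and *Hoxa11* part in opposite directions.

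Whether the response to C59 itself differed between times was tested as an interaction. From 6 h to 12 h, 4 of 62 members passed, 2 in each direction, against 14.6% of all 15811 genes (5.76% higher and 8.83% lower), and 2 passed with a change beyond 1 (1.95% of all genes). *Evx1os* became more negative by 2.29 (SE 0.22, adjusted p = 6.55e-06), as *Evx1* did by 2.38, and *Kcnmb4os2* became more positive by 1.29 (SE 0.28, adjusted p = 0.00549). From 12 h to 24 h, 13 of 65 passed, 8 higher and 5 lower, against 32.2% of all 16107 genes (17.2% higher and 15.0% lower), and 10 passed with a change beyond 1 (6.11% of all genes). The effect on *Notumos* became more positive by 3.12 (SE 0.56, adjusted p = 4.95e-04), that on *Ptgs2os2* by 1.86 (SE 0.43, adjusted p = 0.00339) and that on *Evx1os* by 1.34 (SE 0.26, adjusted p = 8.28e-04). The effects on *Lrp8os2* (-1.39, SE 0.31, adjusted p = 0.00301) and *Kcnmb4os2* (-1.33, SE 0.27, adjusted p = 0.00126) became less positive. Both interactions use the 12 h libraries.

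Other noncoding RNAs gave a reference: of a list of 33 well-known names, 29 were found as noncoding genes. At 12 h 10 of 22 tested were higher and 4 lower, against 20.0% and 23.1% of all genes, among them *H19* (0.46), *Neat1* (0.94) and *Snhg5* (-0.55). At 6 h 3 were higher and 3 lower of 21 (7.02% and 10.1% of all genes). At 18 h these were 1 and 1 of 22 (2.75% and 2.94%), and at 24 h 1 and 2 of 25 (2.42% and 2.79%). At 1 h 0 of 21 passed in edgeR (2.50% of all genes) or DESeq2, with 4 at an unadjusted p under 0.05 in edgeR. Over development in DMSO, 8 were higher and 5 lower of 23 (26.6% and 26.8% of all genes). Of the 11 protein-coding genes with the same spelling, 9 were tested at 12 h and 4 passed, against 43.1% of all genes: *Slc7a6os* (-0.35) and *Wdr83os* (-0.30) fell, and *Ccpg1os* (0.83) and *Brd3os* (0.48) rose. At 6 h 1 of the 9 passed in edgeR (17.1% of all genes). At 1, 18 and 24 h 0 did (2.50%, 5.69% and 5.21% of all genes), nor with DESeq2. At an unadjusted p under 0.05 there was 1 at 1 h, and there were 0 at both 18 and 24 h.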

How the data were processed

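RNA of mouse forelimb buds was sequenced as 150-base read pairs. Per the study's methods and the submitters' processing notes, the authors trimmed reads with cutadapt 1.16, mapped them to mm10 with STAR 2.7.0e and a custom annotation and took raw gene counts from STAR. The deposited counts are whole reads per gene and library. The deposited FPKM values were made by the authors with Cufflinks 2.2.1 as unstranded.

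Counts were tested with edgeR 4.0.16 (R 4.3.3; TMM, filterByExpr with a minimum count of 10 and total of 15, quasi-likelihood, two-sided, Benjamini-Hochberg) on all autosomal genes, each comparison on its own libraries. The study kept protein-coding genes only. The SE is the log2 fold change divided by the square root of F. CPM values are TMM-scaled over all 30 libraries and carry counting error. DESeq2 1.42.0 and limma 3.58.1 on log2(FPKM + 1) or log2(FPKM + 0.1) served as alternatives. Named were, per comparison, up to 6 passing members (4 for interactions) with the largest changes, no overlap and at least 0.5 CPM, the 8 highest by FPKM, and those next to patterning or signalling genes, at the count threshold or protein-coding. *Stamos*, *Ttc39aos1*, *Dnm3os*, *Pcsk2os1*, *Il1bos*, other 0.05-level calls and the reference lncRNAs named were added after their values were seen. Members and lists were chosen with earlier results of these data known. Positions and arrangements come from GENCODE M21, promoters and miRNAs from RefSeq GRCm38.p6. Replicates of a group came from several litters.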

Additional observations from a re-analysis of the deposited data

Results flagged for a closer look

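The effect of C59 differed between 2 times, by the interaction test of edgeR, in 16 cases of named members. Differences are on the log2 scale, with the later effect minus the earlier.

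From 6 h to 12 h the effect changed by -0.23 in *Brip1os*, 0.67 in *Prdm16os*, -2.29 in *Evx1os* and 1.29 in *Kcnmb4os2*. That of *Brip1os* was lost without C59 replicate 2 of 6 h (adjusted p = 0.0551).

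From 12 h to 24 h it changed by -0.43 in *Oip5os1* (-0.28 without C59 replicate 1 of 24 h), -0.93 in *Prdm16os*, -1.39 in *Lrp8os2* and -1.33 in *Kcnmb4os2*, which had been higher in C59 at 12 h. It changed by 1.34 in *Evx1os*, 0.75 in *Fzd10os*, 1.13 in *Foxd2os*, 1.86 in *Ptgs2os2* and 3.12 in *Notumos*, which had been lower. It also changed by 1.39 in *Abhd11os*, 2.58 in *Lef1os1* and 2.88 in *Dlx4os*. *Abhd11os* passed neither at 12 h nor at 24 h, *Lef1os1* was tested at 24 h alone of these times and *Dlx4os* at neither, because of low counts. *Lef1os1* had 3 to 37 and *Dlx4os* 12 to 52 summed counts in the groups involved. The calls of *Abhd11os* and *Lef1os1* were lost without any 1 of 10 and of 8 of the 12 libraries (adjusted p up to 0.0972 and 0.125). *Tmem51os1* (-3.09) also passed, with 8 to 35 summed counts per group.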

How the results depend on the processing

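Low counts limit most members. Strand, embryo sex at 1 h, 6 h and 24 h and cell composition limit what a change means, and their part was not tested. Of the 2 members at 1 h, 0 were left with a log2 fold change beyond 1 (7 had an unadjusted p below 0.05 by edgeR), and 1 passed with DESeq2, with upper-quartile factors, with limma on log2(FPKM + 1) or log2(FPKM + 0.1), and with a spread shared by all 30 libraries. Of the 10 at 6 h, 5 were left with the fold limit and 4 passed with either limma setting. The fold limit left 7 of 11 members and 2 of 6 pairs at 12 h, 8 of 22 members over development and 2 of 4 for the change from 6 h to 12 h. Of the 7 at 18 h, 4 were left with the fold limit and 4 passed with limma on log2(FPKM + 0.1). Of the 2 at 24 h, 1 was left with the fold limit, with DESeq2, with a mean of at least 1 CPM and with limma on log2(FPKM + 1), 0 with log2(FPKM + 0.1) (14 had an unadjusted p below 0.05 by edgeR), and 6 passed with no filter. A mean of at least 1 CPM left 8 of 13 for the change from 12 h to 24 h. A minimum of 100 counts left 104 of 162 members. The cause was not tested. *Hoxb3os* over development turned from -0.90 to 0.038 and 0.058 with limma on log2(FPKM + 1) and log2(FPKM + 0.1).

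The replicate numbers did not pair the samples: no comparison had a correlation of deviations over 0.1 in every pair (0.047, 0.0982 and 0.136 at 12 h, where each was highest with its own number). With the replicate block 1 of 2 members passed at 1 h and 3 of 7 at 18 h, and 9, 11 and 2 members at 6, 12 and 24 h, with 7 pairs at 12 h.

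Leaving out 1 library gave 1 to 2 members at 1 h and 4 to 11 at 6 h. It gave 10 to 14 members and 5 to 8 pairs at 12 h, then 2 to 8 members at 18 h and 0 to 4 at 24 h. Over development 18 to 25 passed, and 3 to 5 and 11 to 16 for the changes of effect. At 6 h the low counts came without C59 replicate 1 (6), 2 (4) or 3 (5). At 24 h they came without DMSO replicate 1 (0), 2 (1) or 3 (1), and the high without C59 replicate 3 (4). At 1 h 1 passed without any C59 library or DMSO replicate 3. At 18 h 2 passed without any DMSO library or C59 replicate 2, and 4 without C59 replicate 1. Over the alternative settings and the left-out libraries together, values of single members kept direction and call in 883 instances, lost the call in 161 and turned in 2. No member that had passed turned direction when 1 library was left out.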
